A study of Mus musculus with 21 samples.

Results

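Etv1, Etv4 and Etv5 were followed on Illumina bead arrays across NP and NPK tumours of the mouse prostate. Every probe that the annotation assigns to 1 of these genes was taken, which gave 6 of the 45126 probes of the intensity table, for 3 of the 12570 genes with a probe that could be tested. Etv1 had 3 probes (ILMN_2631953, ILMN_2649709 and ILMN_2643915), Etv4 had 1 (ILMN_2778111) and Etv5 had 2 (ILMN_1235329 and ILMN_2938047). All 6 passed the detection filter of at least 3 arrays above noise. ILMN_2649709 and ILMN_2643915 of Etv1 passed it through the NPK arrays alone, since neither was above noise on any of the 8 NP arrays. Where a gene had several probes, the one with the highest mean stood for it (ILMN_2631953 for Etv1 and ILMN_1235329 for Etv5) and the others are given beside it.

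Etv1, Etv4 and Etv5 form the PEA3 group of ETS transcription factors. Their transcription is switched on by receptor tyrosine kinases through RAS and MAPK, is held down by the repressor Capicua, and their proteins are degraded through the ubiquitin ligase COP1. In human prostate cancer, genes of this group are activated by rearrangements that place them under other promoters.

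Tumours of the anterior prostate were hybridised to 21 arrays. They came from mouse tumour models labelled NP and NPK. The labels give only the letters NP and NPK and do not spell out the alleles, the animals' ages or the event from which months are counted. NP had 8 arrays. NPK had 8 whose labels give no stage, 3 at 1 month (early) and 2 at 3 months (late). No tumour-free prostate was among them, so every difference below is between tumours. Replicates 4 and 5 of NP were nearly identical and were counted as 1 sample, which left n = 7 for NP and 20 samples in all. Each sample had its own ID number, but whether each came from its own animal is not said, and the p-values below reflect only how far these samples spread.

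The arrays detected 15855 to 20405 probes each. Background-corrected intensities below 19.98 to 60.64, depending on the array, could not be told from noise. Of the epithelial markers, Krt8, Krt18, Foxa1 and Cdh1 were detected on all arrays. Pbsn, a secretory gene of the mouse prostate, was detected on 0 arrays, and Hoxb13 on 2. Tgm4, Msmb and Epcam were undetected on both 3-month arrays. The 5 month-labelled arrays lay on 1 chip with no NP array, and no chip held both NP and NPK, so chip and group cannot be told apart in any comparison with NP. Because these are whole tumours, fewer cells of a type and less RNA per cell cannot be told apart either.

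Promoters of Etv5 are printed as those of 1 of the 2 members whose probes all rose in NPK, a choice made with the values known. They were searched for TGAATG, the core of a short element that Capicua binds. Whether Capicua has a part in any change of these genes was not tested. RefSeq (assembly GRCm38.p6) gave 2 start sites each for Etv5 and Etv1, from 250 bases before to 50 after the start. The promoter set used had no entry for Etv4, so Etv4 was not searched. Capitals mark TGAATG or its reverse complement CATTCA.
Etv5, upstream start, chr16:22439521-22439820, minus strand: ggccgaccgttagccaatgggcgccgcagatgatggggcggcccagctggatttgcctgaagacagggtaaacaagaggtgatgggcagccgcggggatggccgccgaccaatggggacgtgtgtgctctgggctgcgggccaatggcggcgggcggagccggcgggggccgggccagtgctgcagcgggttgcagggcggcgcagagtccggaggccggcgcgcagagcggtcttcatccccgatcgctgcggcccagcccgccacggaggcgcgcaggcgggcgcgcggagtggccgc
Etv5, downstream start, chr16:22438319-22438618, minus strand: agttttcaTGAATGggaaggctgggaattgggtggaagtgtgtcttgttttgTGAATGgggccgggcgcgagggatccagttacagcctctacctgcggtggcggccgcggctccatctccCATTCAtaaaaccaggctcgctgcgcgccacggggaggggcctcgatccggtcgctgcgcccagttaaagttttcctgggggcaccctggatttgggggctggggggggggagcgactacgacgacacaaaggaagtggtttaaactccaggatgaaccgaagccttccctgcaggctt
The downstream start of Etv5 held 3 matches to TGAATG on the 2 strands, and the upstream start held 0. Of 32851 promoters of the same length, 12.7% held at least 1 match and 0.17% held 3 or more. The longer forms TGAATGAA and TGAATGGA, each of which contains the core and occurs in 1.3% and 1.21% of promoters, had 0 matches in both windows of Etv5 and both of Etv1. Both windows of Etv1 (chr12:38779832-38780131 and chr12:38783461-38783760, plus strand) held 0 matches to TGAATG. The ETS core GGAA occurred 6 times at the downstream start of Etv5 and 5 times at the first start of Etv1, but it is in 96.0% of promoters. AGGAAG, which contains GGAA, occurred 1 time at the former and 2 times at the latter, against 35.4% of promoters with any match. The AP-1 site TGANTCA (7.81% of promoters) had 0 matches in the 4 windows. All motifs were searched on both strands and were chosen with the sequences in view, so the shares of all promoters are no test of the matches. A match is a run of letters and shows no binding.

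Etv4 was low in NP tumours, higher in NPK tumours with no stage and in those at 1 month, and highest at 3 months. On the log2 scale of background-corrected, normalised intensity its level in NP ran from 4.98 to 6.67 with a median of 5.67, and 4 of 8 arrays were above noise. In NPK it ran from 6.75 to 8.90 with a median of 7.64, above noise on 8 of 8 arrays. At 1 month the 3 samples had 7.74, 8.51 and 6.85, and at 3 months the pair had 9.78 and 9.26. Every sample of each NPK group lay above every NP sample. The gap was narrow for NPK (0.08) and for 1 month (0.18) and wide for 3 months (2.59). Both 3-month samples also lay above every other sample of the series.

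Etv5 was likewise lowest in NP and highest at 3 months, with smaller steps. ILMN_1235329 ran from 5.54 to 6.57 (median 6.08) in NP and from 6.92 to 8.11 (median 7.29) in NPK. It had 7.70, 8.22 and 6.77 at 1 month and 8.61 and 8.79 at 3 months. No NPK sample of any group overlapped NP on this probe. ILMN_2938047, the other Etv5 probe, ran from 5.52 to 6.66 (median 6.19) in NP and from 6.25 to 7.30 (median 7.04) in NPK. At 1 month it had 7.22, 7.44 and 6.58, and at 3 months 7.76 and 7.91. Here NPK and 1 month overlapped NP, while 3 months lay 1.10 above the highest NP sample.

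The Etv1 probe with the highest mean gave another picture than the other 2, called dim here for their levels in NP. In the month groups they were not the dimmer ones. ILMN_2649709 and ILMN_2643915 had means of 6.62 and 6.65 at 1 month, against 6.46 for ILMN_2631953. At 3 months the means were 8.25 and 8.02 against 7.31. ILMN_2631953 spread widely within NP (5.59 to 7.45, median 6.17, above noise on 7 of 8 arrays) and within NPK (5.57 to 7.65, median 6.38, above noise on 5 of 8 arrays). It had 6.68, 6.76 and 5.94 at 1 month, and the 3-month samples stood far apart at 8.53 and 6.08. ILMN_2649709 was not well above background in any NP array, with raw intensities of -15.6 to 19.5 and log2 levels around a mean of 4.76 (SD 0.23, n = 7). It ran from 4.84 to 6.92 (median 5.77, above noise on 4 of 8 arrays) in NPK. It had 6.81, 7.11 and 5.93 at 1 month and 9.10 and 7.39 at 3 months, with no overlap between the month groups and NP. An intensity of 41.2 on NPK replicate 2 was not above noise for this probe, while 40.2 on 1-month replicate 3 was. ILMN_2643915 was likewise not well above background in NP (raw intensities -13.6 to 14.1) and was above noise on 2 of 8 NPK arrays. It had 6.87, 6.94 and 6.14 at 1 month and 8.92 and 7.12 at 3 months. Replicate 1 of the 3-month group was the highest of all 20 samples on each of the 3 Etv1 probes, and replicate 3 of the 1-month group the lowest of its group on all 6 probes.

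**Figure D1:**
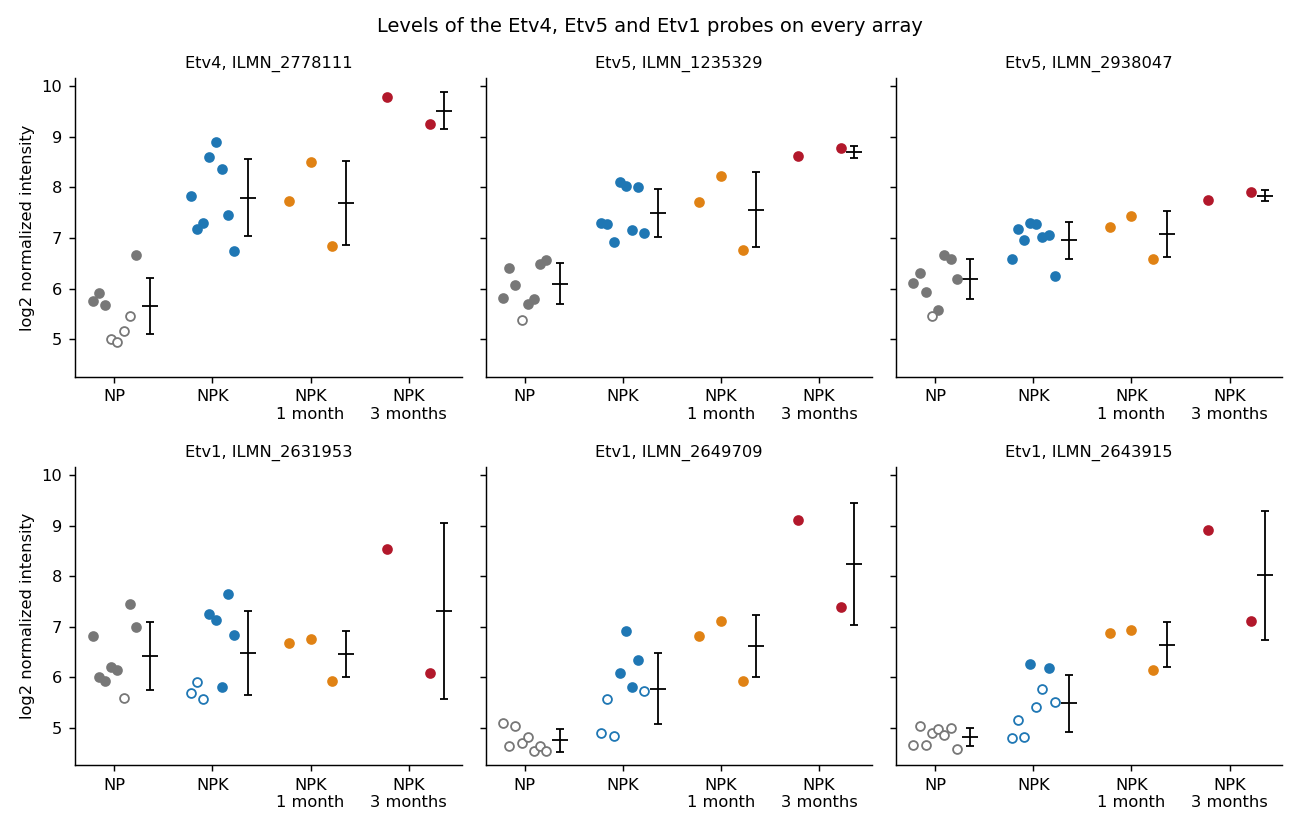
Log2 level (vertical axis, background-corrected and quantile-normalised intensity) of each of the 6 probes on every array, by group; each point is 1 array, filled where the probe was above noise and open where it was not, and the bars give mean ± SD over the samples of the group. Etv4 and both Etv5 probes climb from NP to the 3-month group, and ILMN_2631953 of Etv1 overlaps between NP and NPK. ILMN_2649709 and ILMN_2643915 of Etv1 are above noise on every month-labelled array, but on 4 and 2 of 8 arrays of NPK without a stage.

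The comparison of NPK with NP set the tumours of the 2 models side by side. Etv4 and Etv5 rose, and of the 3 Etv1 probes 1 passed the test. Etv4 rose at least 3.93-fold (2.14 ± 0.33 SE on the log2 scale, limma adjusted p = 0.000106, n = 8 and 7). The bound sets the NPK mean against the lowest level that counted as detected, because only 4 of 8 NP arrays were above noise. Etv5 rose 2.62-fold on ILMN_1235329 (1.39 ± 0.24 SE, limma adjusted p = 0.000267) and 1.70-fold on ILMN_2938047 (0.77 ± 0.19 SE, limma adjusted p = 0.00482). For Etv1, ILMN_2631953 moved by only 0.06 ± 0.40 SE and was not called (limma adjusted p = 0.924). Its 95% confidence interval of -0.77 to 0.89 leaves room for a change in either direction. ILMN_2649709 rose at least 1.18-fold (1.02 ± 0.30 SE, limma adjusted p = 0.0131), and ILMN_2643915 changed by 0.67 ± 0.26 SE without passing (limma adjusted p = 0.0538). Both were in the test only because NPK arrays detected them, so a call of theirs against NP is partly fixed by the filter and is not counted. Of the 4 probes above noise on at least 3 NP arrays, 3 were called higher, where 13.4% of the 24217 probes tested were called higher. The NPK samples were all above the NP samples on 2 of these 4, against 2.43% of all probes.

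Differences between probes were put to exact permutation tests over the samples, a family of 19 over 4 comparisons, chosen after the values were seen. Pairs with a dim Etv1 probe were left out against NP, where those probes have only a bound. Etv4 entered with its NP levels as measured, 4 of 8 of them above noise. ILMN_2631953 of Etv1 entered with its NPK levels as measured, 5 of 8 of them above noise. In NPK against NP the change of ILMN_2631953 of Etv1 was 2.08 below that of Etv4 on the log2 scale (exact permutation p = 0.000622, two-sided, adjusted p = 0.00886) and 1.33 below that of Etv5 (exact permutation p = 0.000932, adjusted p = 0.00886). These were the only 2 of the 19 that passed. Etv4 rose by 0.75 more than Etv5 (exact permutation p = 0.0149, adjusted p = 0.0528), and the Etv5 probes differed by 0.62 (exact permutation p = 0.0115, adjusted p = 0.0528), neither of which passed after adjustment. The part of probe brightness in these differences was not tested. Whether the Etv1 probes report different transcripts was not tested, since no probe sequences were used here.

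At 1 month against NP, Etv4 and both Etv5 probes were again higher. Both dim Etv1 probes were called too, but their calls against NP are partly fixed by the filter and are not counted. Etv4 rose at least 3.67-fold (2.04 ± 0.44 SE, limma adjusted p = 0.00147, n = 3 and 7). Etv5 rose 2.76-fold on ILMN_1235329 (1.46 ± 0.32 SE, limma adjusted p = 0.00154) and 1.86-fold on ILMN_2938047 (0.89 ± 0.25 SE, limma adjusted p = 0.0101). The latter call was lost without replicate 1 (0.82, limma adjusted p = 0.0511) or 2 (0.71, limma adjusted p = 0.0792) of the 1-month group. ILMN_2649709 of Etv1 rose at least 2.12-fold (1.86 ± 0.39 SE, limma adjusted p = 0.00137) and ILMN_2643915 at least 2.16-fold (1.83 ± 0.34 SE, limma adjusted p = 0.000528). ILMN_2631953 of Etv1 changed by 0.03 ± 0.53 SE (limma adjusted p = 0.968), with an interval of -1.07 to 1.14. Of the 4 probes above noise on at least 3 NP arrays, 3 were called higher, against 18.4% of all probes. The groups did not overlap on 2 of these 4, against 18.4% of all probes with every 1-month sample above every NP sample. ILMN_2631953 changed by -2.005 relative to Etv4 and -1.43 relative to Etv5 on the log2 scale, each with an exact permutation p = 0.0167, the smallest that 3 against 7 samples allow, and adjusted p = 0.0528.

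At 3 months against NP Etv4 and both Etv5 probes were called higher. So were both dim Etv1 probes, whose calls against NP are partly fixed by the filter and are not counted. Etv4 rose at least 12.98-fold (3.86 ± 0.51 SE, limma adjusted p = 8.10e-06, n = 2 and 7). Its raw intensities were 748 and 545 at 3 months, well clear of the detection limits. Etv5 rose 6.06-fold on ILMN_1235329 (2.60 ± 0.37 SE, limma adjusted p = 1.67e-05) and 3.14-fold on ILMN_2938047 (1.65 ± 0.29 SE, limma adjusted p = 0.000182). ILMN_2649709 of Etv1 rose at least 6.55-fold (3.49 ± 0.46 SE, limma adjusted p = 8.03e-06) and ILMN_2643915 at least 5.60-fold (3.20 ± 0.40 SE, limma adjusted p = 4.61e-06). Their changes were 2.64 and 2.30 without replicate 1 of the 3-month group, and 4.34 and 4.10 without replicate 2. ILMN_2631953 changed by 0.88 ± 0.61 SE without passing (limma adjusted p = 0.251, interval -0.40 to 2.17). The 2 samples behind that value, 8.53 and 6.08, had an SD of 1.74, while the SE borrows the spread of all groups. Without replicate 1 of the 3-month group the change of ILMN_2631953 was -0.35, and without replicate 2 it was 2.11 (limma adjusted p = 0.0307). Of the 4 probes above noise on at least 3 NP arrays, 3 were called higher, against 23.9% of all probes, and on the same 3 both 3-month samples lay above every NP sample, against 26.7% of all probes. With 2 samples the exact permutation test of a difference between probes cannot go below p = 0.0556, which Etv4 reached against Etv5 (a difference of 1.26), ILMN_2631953 of Etv1 against Etv4 (-2.98) and the Etv5 probes against each other (0.95).

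**Figure D2:**
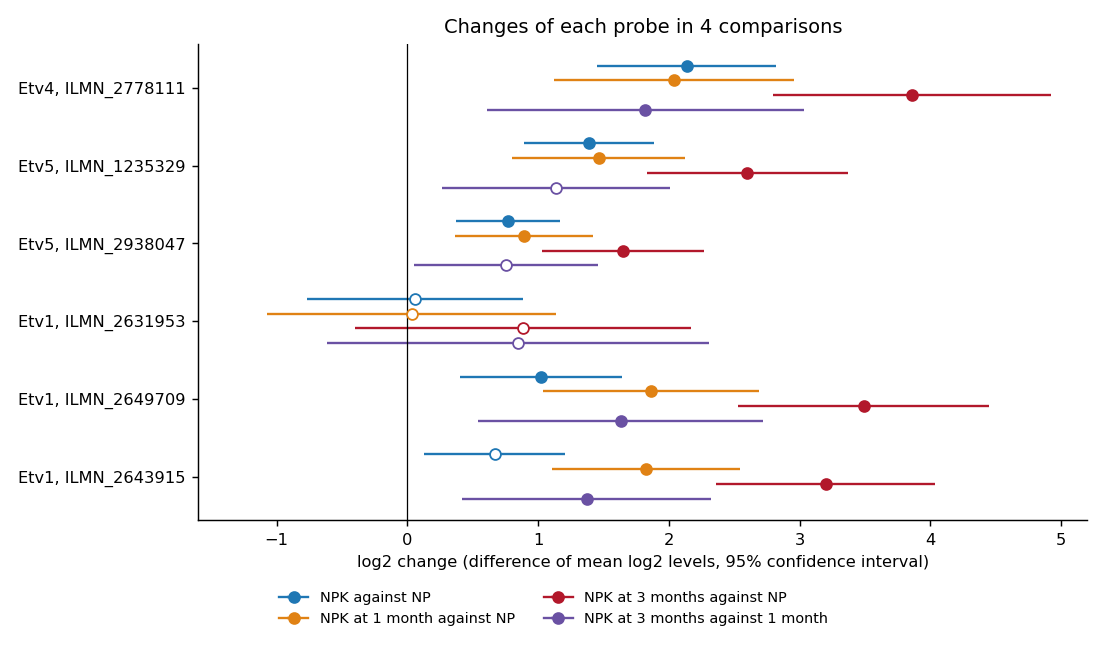
Log2 change of each probe (points, difference of mean log2 levels) with its 95% confidence interval (lines) in 4 comparisons; filled points passed the adjusted threshold of 0.05, and levels at noise are taken as measured. For Etv4, Etv5 and the dim Etv1 probes the change at 3 months against NP is the farthest from 0, and ILMN_2631953 of Etv1 has an open point in all 4 comparisons.

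The late and early NPK tumours lay on 1 chip and were compared with each other. Etv4 rose 3.53-fold from 1 to 3 months (1.82 ± 0.58 SE, limma adjusted p = 0.0379, n = 2 and 3). ILMN_2649709 of Etv1 rose 3.10-fold (1.63 ± 0.52 SE, limma adjusted p = 0.0398) and ILMN_2643915 2.59-fold (1.37 ± 0.45 SE, limma adjusted p = 0.0471). Etv5 changed by 1.14 ± 0.42 SE (limma adjusted p = 0.0739) and 0.76 ± 0.34 SE (limma adjusted p = 0.148) on its probes, and ILMN_2631953 of Etv1 by 0.85 ± 0.70 SE (limma adjusted p = 0.498). Hence 3 of 6 probes were called higher, against 8.25% of all probes, and 5 of 6 did not overlap, against 25.9% of all probes with both 3-month samples above all 1-month samples. The call of Etv4 was lost without either 3-month sample (limma adjusted p = 0.268 and 0.0736, changes 1.56 and 2.08) and without replicate 1 or 3 of the 1-month group (limma adjusted p = 0.0821 and 0.154, changes 1.84 and 1.40). The call of ILMN_2649709 was lost without replicate 1 of the 3-month group (0.78, limma adjusted p = 0.567) and without replicates 1 or 3 of the 1-month group (limma adjusted p = 0.0688 and 0.152). ILMN_2643915 kept its call in 5 of the 20 runs with 1 sample left out, with a change of 0.47 without replicate 1 of the 3-month group. Over 17 other settings of processing and fit these 2 probes kept their calls in 9 and 5, with changes of 0.69 and 0.58 on the authors' values.

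Ordered by level, the groups ran NP, 1 month, NPK without a stage, 3 months for Etv4, and NP, NPK, 1 month, 3 months for both Etv5 probes and the dim Etv1 probes. For ILMN_2631953 of Etv1 the means lay close together at 6.42 (NP), 6.46 (1 month) and 6.48 (NPK), with 7.31 at 3 months, and none of the comparisons on this probe passed. NPK and 1 month were not separated for Etv4 (difference 0.10, limma adjusted p = 0.897), Etv5 (-0.07, limma adjusted p = 0.892, and -0.13, limma adjusted p = 0.762) or ILMN_2649709 of Etv1 (limma adjusted p = 0.135). ILMN_2643915 of Etv1, above noise on 2 of 8 NPK arrays, was at least 1.55-fold lower in NPK than at 1 month (limma adjusted p = 0.0204), where 10.9% of all probes were called lower. Of the other 5 probes, each above noise on at least 3 NPK arrays, 4 were lower in NPK than at 3 months, against 21.1% of all probes. The differences were -1.72 for Etv4 (limma adjusted p = 0.0113) and -1.21 and -0.88 for Etv5 (limma adjusted p = 0.0133 and 0.0233). ILMN_2649709 of Etv1 was at least 4.31-fold lower (limma adjusted p = 0.000313) and ILMN_2643915 at least 4.00-fold lower (limma adjusted p = 6.60e-05). These comparisons share samples with those above and lie across chips.

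Fibroblast markers were higher in the NPK groups, as Etv4 and Etv5 were. The mean log2 level of 12 fibroblast markers lay between 7.98 and 9.35 in NP, between 9.38 and 11.4 in NPK, between 9.49 and 10.7 at 1 month and between 9.91 and 10.3 at 3 months, with 6, 5 and 6 of the 12 called higher than in NP, against 14.7%, 17.8% and 23.5% of all genes, and 1 lower at 3 months, against 23.6%. No fibroblast marker was undetected on all arrays of a group. With this mean as a covariate, added after the data were seen, Etv4 changed by 0.81 in NPK (limma adjusted p = 0.10) and 0.83 at 1 month (limma adjusted p = 0.0915), and Etv5 by 0.67 (limma adjusted p = 0.151) and 0.81 (limma adjusted p = 0.0848), so all 4 calls were lost. So were those of the other Etv5 probe, ILMN_2938047 (0.34, limma adjusted p = 0.437, and 0.50, limma adjusted p = 0.232). At 3 months Etv4 (2.68, limma adjusted p = 4.44e-05) and Etv5 (1.96, limma adjusted p = 0.000452) remained called. For Etv1 at 3 months, ILMN_2649709 changed by 3.06 (limma adjusted p = 0.000282) and ILMN_2643915 by 3.15 (limma adjusted p = 0.000101) under this covariate. The filter partly fixes these calls against NP too, and they are not counted. ILMN_2649709 lost its call in NPK (0.54, limma adjusted p = 0.455). From 1 to 3 months the fibroblast means overlapped, and the change of Etv4 was 1.84 with the covariate (limma adjusted p = 0.00156). A marker mean that differs between the groups takes part of any difference between them with it, and the part of stroma in these results was not tested further.

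Other tissues also moved with the groups. The mean of 8 seminal vesicle markers ran from 4.88 to 8.16 in NP, 6.47 to 14.6 in NPK, 11.03 to 14.5 at 1 month and 5.61 to 7.69 at 3 months. Skeletal muscle markers ran from 5.69 to 6.71, 5.59 to 8.60, 8.71 to 9.27 and 6.37 to 6.37 in the same order. In NPK, at 1 month and at 3 months 5, 8 and 0 of 8 seminal vesicle markers were called higher than in NP. For skeletal muscle these were 1, 7 and 0 of 7. The shares of all genes were 14.7%, 17.8% and 23.5%, and 0 of either list were called lower. Smooth muscle markers ran from 7.65 to 9.56, 8.78 to 12.3, 9.56 to 11.04 and 8.10 to 9.60. Of 7 tested, 6, 5 and 1 were called higher than in NP, against 14.7%, 17.8% and 23.5% of all genes. At 1 month 1 of 7 was called lower, against 19.5%. The part of smooth muscle in the results was not tested. Svs2 and Svs3a were undetected in all NP arrays, and Svs1, Svs2, Svs3a and Svs3b at 3 months. With the seminal vesicle and skeletal muscle means as covariates Etv4 changed by 0.54 (limma adjusted p = 0.679) and Etv5 by 1.12 (limma adjusted p = 0.220) at 1 month, and both calls were lost. ILMN_2649709 of Etv1 lost its call there too (1.89, limma adjusted p = 0.0758), and ILMN_2938047 of Etv5 lost its calls in NPK (0.61, limma adjusted p = 0.103) and at 1 month (0.41, limma adjusted p = 0.617). Both covariates lay wholly above NP at 1 month, so they take part of the group difference with them. The SE of Etv4 at 1 month was 0.75 with them and 0.44 without, so these lost calls do not decide the part of those tissues. In NPK, Etv4 (1.67, limma adjusted p = 0.00834) and Etv5 (1.40, limma adjusted p = 0.00596) kept theirs, as they did at 3 months (3.69, limma adjusted p = 1.01e-05, and 2.52, limma adjusted p = 3.84e-05). Luminal markers ran from 9.49 to 11.2 in NP, 9.27 to 10.7 in NPK, 9.50 to 9.75 at 1 month and 8.56 to 8.998 at 3 months. Of 7 luminal markers tested, 2, 2 and 3 were called lower than in NP, against 17.9%, 19.5% and 23.6% of all genes, and 0 higher. Among the 3 lower at 3 months, Cdh1, which encodes E-cadherin, was 3.07 lower on the log2 scale (limma adjusted p = 6.78e-08). Krt8, a luminal keratin, was 0.63 lower (limma adjusted p = 0.00499), and 4 of the 7 did not pass. Endothelial markers ran from 7.19 to 7.76 in NP, 7.84 to 9.02 in NPK, 8.27 to 8.99 at 1 month and 8.61 to 8.997 at 3 months. Of 10 tested, 9, 7 and 8 were called higher than in NP, against 14.7%, 17.8% and 23.5% of all genes, and 0 lower. They too lay above NP in every NPK group, as Etv4 did, and the part of endothelium in the results was not tested. All 6 T and NK cell markers tested were undetected at 3 months.

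Chip was entered as a random block because NP and NPK each span several chips (consensus correlation 0.218). Etv4 then changed by 2.05 in NPK (limma adjusted p = 0.00457), 2.03 at 1 month (limma adjusted p = 0.0183) and 3.85 at 3 months (limma adjusted p = 0.000150). Etv5 changed by 1.36 (limma adjusted p = 0.00855), 1.45 (limma adjusted p = 0.0199) and 2.59 (limma adjusted p = 0.000301). No chip held both NP and NPK, and the month-labelled arrays lay on 1 chip. The block cannot tell chip from group there, so calls kept under it do not decide the part of chip. The chip means of Etv4 were 5.46 and 5.77 for NP, 7.96, 7.92 and 6.75 for NPK and 8.43 for the month-labelled chip, where the 6.75 is 1 array. On the other Etv5 probe, ILMN_2938047, calls were lost under this block in NPK (0.70, limma adjusted p = 0.0579) and at 1 month (0.88, limma adjusted p = 0.0542). Both were lost as well without the chip of NP 1 to 5 (0.48, limma adjusted p = 0.147, and 0.60, limma adjusted p = 0.110), and that in NPK without the chip of NPK 1 to 5 (0.59, limma adjusted p = 0.142) and on the chips of a shared barcode series (0.81, limma adjusted p = 0.0854). On ILMN_2649709 of Etv1 the call in NPK was lost under the block (1.06, limma adjusted p = 0.0838) and without the chip of NP 6 to 8 (0.89, limma adjusted p = 0.103).

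**Figure D3:**
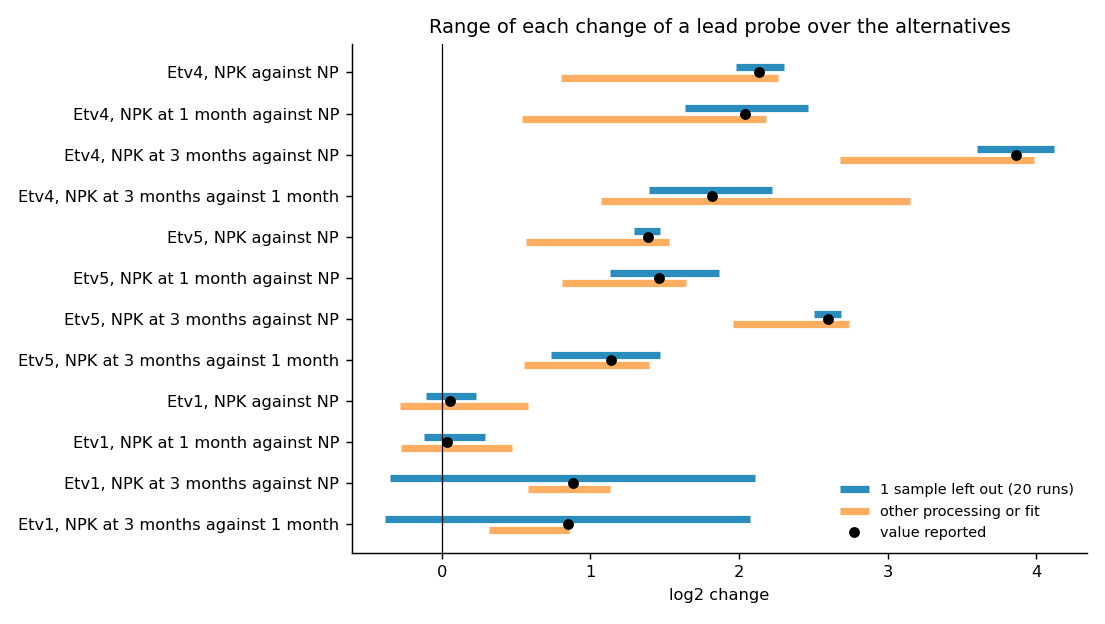
Log2 change of each lead probe as reported (black points) with its range when 1 sample was left out (blue, 20 runs) and over the other settings of processing and fit (orange). The ranges of Etv4 and Etv5 stay right of 0 in all 4 comparisons, and for ILMN_2631953 of Etv1 at least 1 of the ranges crosses 0 in each comparison.

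Probes of 1 gene were set against each other. Over the 20 samples, as a description with group means included, ILMN_2649709 and ILMN_2643915 of Etv1 had r = 0.939 (0.745 after group means were taken out), and ILMN_2631953 had r = 0.561 and 0.540 with them (0.732 and 0.726). The Etv5 probes had r = 0.900 (0.639), and Etv4 and Etv5 had r = 0.941 (0.709). Within NPK alone, ILMN_2631953 and ILMN_2649709 of Etv1 had r = 0.813 (exact permutation p = 0.0122, n = 8, adjusted p = 0.123) and rho = 0.857 (exact permutation p = 0.0107, adjusted p = 0.104), with r = 0.838 without the 2 samples farthest from the median. The Etv5 probes had r = 0.584 (exact permutation p = 0.0980, adjusted p = 0.164) and rho = 0.762 (exact permutation p = 0.0368, adjusted p = 0.104) in NPK. ILMN_2631953 and ILMN_2643915 of Etv1 had r = 0.781 there (exact permutation p = 0.0339, adjusted p = 0.123) and rho = 0.786 (exact permutation p = 0.0279, adjusted p = 0.104), and r = 0.506 without the 2 farthest samples, with 5 and 2 of 8 arrays above noise. In NP the Etv5 probes had r = 0.486 (exact permutation p = 0.284, adjusted p = 0.347, n = 7) and rho = 0.321 (exact permutation p = 0.498, adjusted p = 0.556). Without the 2 farthest samples the Etv5 values were r = 0.293 in NPK and r = 0.159 in NP. Etv4 and Etv5 had r = 0.741 in NP (exact permutation p = 0.0448, adjusted p = 0.123) and r = 0.604 in NPK (exact permutation p = 0.105, adjusted p = 0.164), and rho = 0.75 (exact permutation p = 0.0663, adjusted p = 0.104) and rho = 0.714 (exact permutation p = 0.0576, adjusted p = 0.104). Without the 2 farthest samples r was 0.359 and 0.0818. Leaving them out also narrows the range of levels, so the lower r does not show that these relations rest on those samples. Of 11 such relations within a group 0 passed after adjustment, and 4 had an unadjusted p under 0.05 by Pearson's r. Each chip held too few samples of 1 group for a value within chips.

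**Figure D4:**
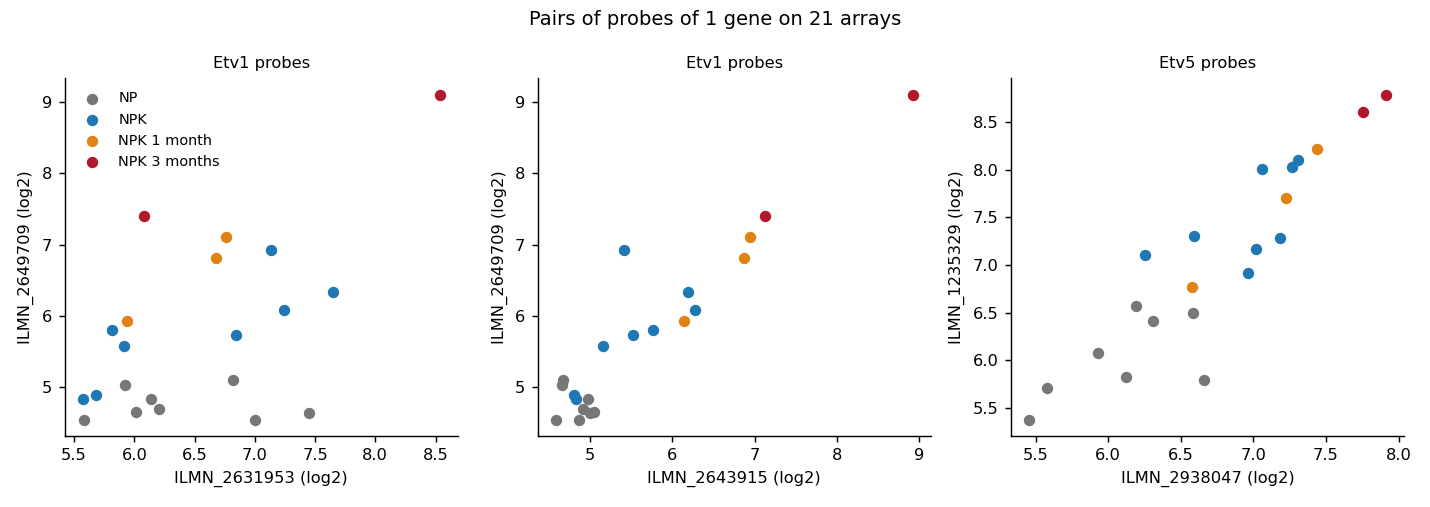
Log2 levels of 2 probes of the same gene against each other on 21 arrays (1 point an array, coloured by group); left and middle panels are Etv1, right panel Etv5. The Etv5 pair and the pair of dim Etv1 probes climb together, whereas NP arrays on the left run along ILMN_2631953 with ILMN_2649709 at the noise level.

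The genes whose level followed each member over the 20 samples were named by Pearson's r among 10124 genes, a description in which group means take part. For Etv4 they were Col5a1 (r = 0.959), Cavin3 (0.944), Etv5 (0.941), Rab31 (0.940) and Tgfb3 (0.936). Col5a1 encodes a chain of type V collagen and is itself in the fibroblast list, and Tgfb3 encodes a growth factor of the TGF-beta family. With group means taken out, r was 0.852, 0.819, 0.709, 0.762 and 0.781. For Etv5 they were Rab31 (0.946), Etv4 (0.941), Mxra8 (0.915), Tpm4 (0.915) and Zbtb25 (0.913). For ILMN_2631953 of Etv1 they were Snhg12 (0.777), Slc7a3 (0.766), Rgs17 (0.718), Cyria (0.713) and Kcnab1 (0.712), and none of these 5 was among the 5 of Etv4 or Etv5.

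Genes around the PEA3 factors were counted from lists written for the pathway, with the lead probe of each gene. The lists were chosen with earlier results of these data known. Their counts beside the shares of all genes are therefore a description and not a test. RAS-MAPK output genes, which respond to the cascade that also switches on the PEA3 factors, rose in 8 of 14 and fell in 2 of 14 cases in NPK, with a median log2 change of 0.85. Over all 12570 genes 14.7% were called higher and 17.9% lower, with a median of -0.01. Phlda1 rose by 1.62, the cyclin D1 gene Ccnd1 by 1.64, the early response gene Ier3 by 1.61 and the receptor gene Epha2 by 1.49. At 1 month 4 rose and 2 fell (median 0.49, against 17.8% higher and 19.5% lower and a median of 0.00), led by the ERK phosphatase gene Dusp6 (1.73), Ier3 (1.94), Ccnd1 (1.72) and Epha2 (1.04). At 3 months 9 rose and 0 fell (median 1.15, against 23.5% higher and 23.6% lower and a median of -0.05), with Dusp6 at 2.11, Ccnd1 at 2.24, the phosphatase gene Dusp5 at 2.36 and Epha2 at 1.32. From 1 to 3 months 3 rose and 1 fell of 14 (median 0.33, against 8.63% higher and 9.08% lower and a median of 0.02). Spry4 (at least 2.51-fold) and Spred1 (0.90), which encode feedback inhibitors, and Dusp5 (1.57) rose, while Phlda1 fell by 1.16.

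Of 10 genes for repression and degradation of PEA3 factors, 3 rose and 0 fell in NPK (median 0.22, against 14.7% higher and 17.9% lower of all genes). Ddb1 (0.95) and Det1 (at least 1.44-fold), of the ligase complex that works with COP1, and Trib1 (0.73), a COP1 adaptor, rose, and Dda1 had 0.21 and did not pass. At 1 month 5 rose and 1 fell (median 0.44, against 17.8% and 19.5%). The fall was that of Cic, which encodes Capicua, by 1.16 (limma adjusted p = 4.39e-05), and Dda1 (0.96), Trib1 (1.04) and Atxn1 (0.85), which encodes a partner of Capicua, were among the rises. At 3 months 6 rose and 1 fell (median 0.79, against 23.5% and 23.6%). Cic fell by 1.00 (limma adjusted p = 0.000348), and Dda1 (1.17), Ddb1 (1.87) and Cop1 (0.85) rose. In NPK without a stage Cic did not pass, and it was 0.82 higher there than at 3 months (limma adjusted p = 0.00226). Between 1 and 3 months 0 of 10 passed (median 0.23, against 8.63% and 9.08%), and Ddb1 had 1.09 (limma adjusted p = 0.0709).

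FGF and RET ligands and receptors, which act upstream of the PEA3 factors in several developing organs, had 0 of 10 called higher and 2 lower in NPK (median 0.06), and the same counts at 1 month (median 0.04). The 2 of 10 called lower lie near the 17.9% and 19.5% of all genes. Fgfr2 fell by 1.3 and 1.74 in these comparisons. Gfra1, which encodes a co-receptor of RET, was at least 1.19-fold and at least 1.58-fold lower, being above noise in 8 of 8 NP arrays and in no NPK or 1-month array. Fgf10 had 0.85 and 0.82, Fgfr1 0.55 in NPK and Fgf7 1.06 at 1 month, none of which passed. At 3 months 2 rose and 3 fell (median -0.54, against 23.5% and 23.6%). Fgfr1 rose by 1.39 and Fgf7 by 2.09, while Fgfr2 fell by 3.05 and Ret, above noise on 1 of 2 arrays, was at least 4.797-fold lower. From 1 to 3 months 0 of 10 passed (median -0.80, against 8.63% higher and 9.08% lower of all genes), Ret included (limma adjusted p = 0.0932).

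Genes reported as PEA3 targets, mostly from work in cultured cells and breast tumours, moved in both directions. In NPK 3 rose and 2 fell of 13 (median 0.02, against 14.7% and 17.9% of all genes). The collagenase gene Mmp2 rose by 2.04, the intermediate filament gene Vim by 0.78 and the mucin gene Muc4 at least 2.12-fold, and Myb, above noise on 1 of 8 NPK arrays, was called lower (limma adjusted p = 0.0310). At 1 month 3 rose and 2 fell (median 0.22, against 17.8% and 19.5%), with Vim at 1.54 and Muc4 at least 2.17-fold higher, and the chemokine receptor gene Cxcr4 (-1.84) and Erbb2 (-0.95) lower. At 3 months 2 rose and 5 fell (median 0.23, against 23.5% and 23.6%). Vim rose by 4.26 (limma adjusted p = 1.49e-07), while the matrilysin gene Mmp7, above noise on 1 of 2 arrays, was at least 11.9-fold lower. Erbb2 fell by 1.80 and Icam1, an adhesion gene, by 1.5. Between 1 and 3 months 1 rose and 2 fell (median -0.34, against 8.63% and 9.08%). Vim rose by 2.72, Mmp7 was at least 7.28-fold lower and Erbb2 fell by 0.84. Vim is expressed by fibroblasts and other stromal cells as well, whose marker levels are given above.

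**Figure D5:**
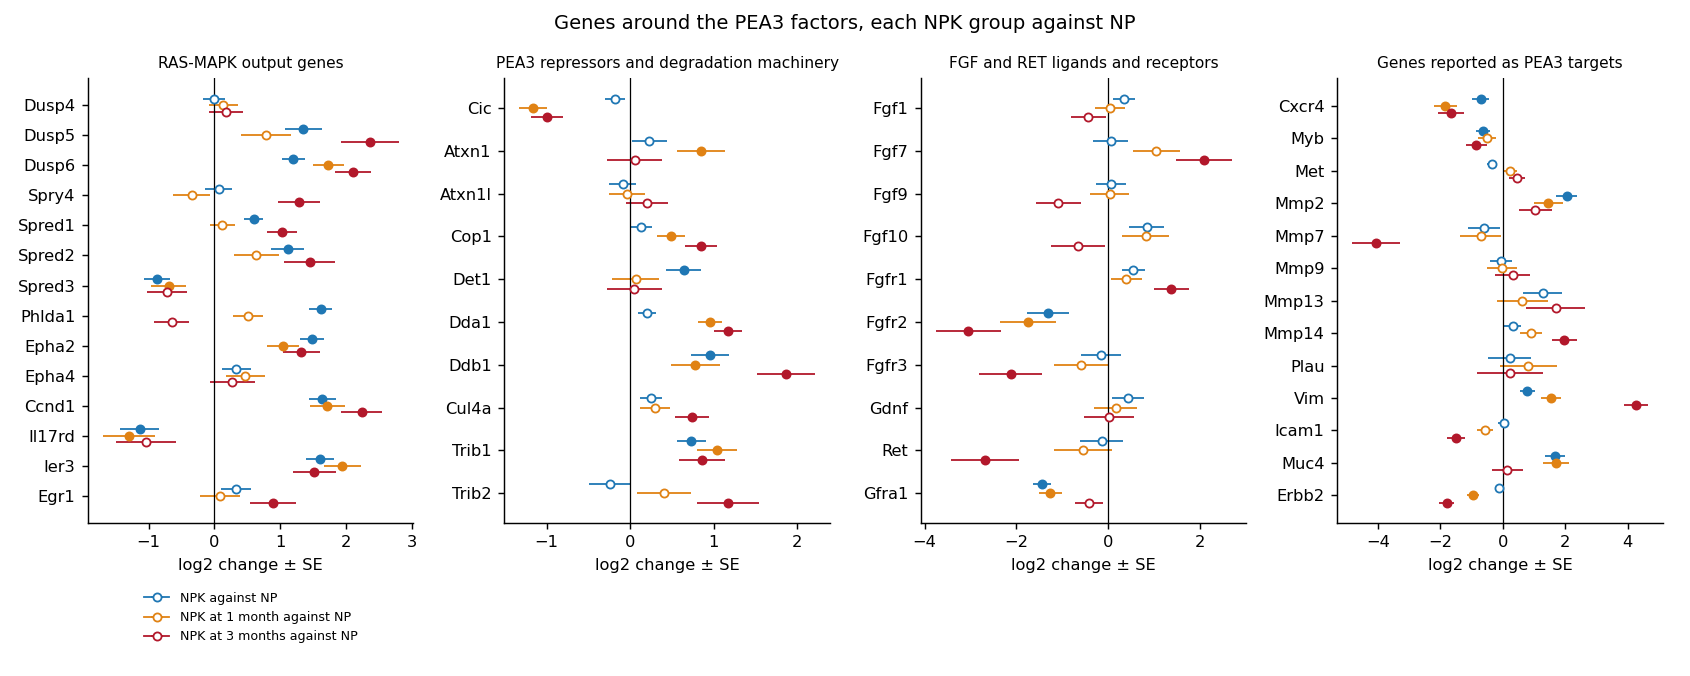
Log2 change ± SE of each tested gene of 4 lists (rows) in NPK, at 1 month and at 3 months, each against NP; filled points passed the adjusted threshold of 0.05, and levels at noise are taken as measured. Cic lies left of 0 at 1 and 3 months, most RAS-MAPK output genes lie right of 0, and the target list splits to both sides with Vim and Mmp7 at its ends.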

How the data were processed

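The members, gene lists and motifs were chosen with earlier results of these data known. The deposited table holds linear bead intensities, background-subtracted by the authors, as values below 0 show, and not normalised between arrays. A deposited table of values processed by the authors on a log2 scale, with transform and centring not given, was treated as scaled separately for the month-labelled arrays and the rest, and was used as an alternative within each set. Per the submitters' processing notes BeadStudio and lumi were used. Per the labels' protocols RNA was amplified and biotin labelled for the arrays. The alleles of the models are not reported here. No detection p-values or control probes were used. Intensities were corrected by the normal-exponential model with a background mean of 0 and the noise SD of each array (8.59 to 26.1, from values below 0), given an offset of 16, quantile normalised between arrays and put on the log2 scale. Detection meant a value that noise exceeds with probability 0.01. The 24217 probes detected on at least 3 arrays were fitted with limma 3.58.1 in R 4.3.3, two-sided, with every group in the same fit (16 residual degrees of freedom) and p-values adjusted by Benjamini and Hochberg over these probes at a threshold of 0.05. If 50% or fewer of the dimmer group's arrays detected a probe, the fold is a lower bound against the lowest detected level of each array, or the probe's own level if higher, and none is given where it is under 1. Every member probe is named, up to 4 genes with the smallest adjusted p per pathway list and comparison, and the 5 genes with the highest r per member. Probe genes came from the platform annotation with symbols updated through RefSeq (18 gene IDs unmatched); of 137 list entries 117 were tested and 8 had no probe of that symbol and were not analysed here. The fits were tested on simulated data. Alternatives were median scaling, other background corrections and offsets, detection filters, array weights, chip and replicate blocks, tissue covariates, the authors' values, and each sample or chip left out. The number of arrays limits the precision.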

Additional observations from a re-analysis of the deposited data

How the results depend on the processing

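Of 465 repeats of the 12 changes of the lead probes, 424 kept direction and call. This count is no measure of stability. Many repeats could not move the change, such as those that left out a sample outside the comparison or only altered which probes were tested. It also includes the changes of ILMN_2631953 of Etv1, which were not called to begin with. Etv4 and Etv5 at 3 months against NP kept both in all of theirs, with changes of 2.68 to 3.98 and 1.96 to 2.74 over the other settings, and of 3.60 to 4.12 and 2.51 to 2.69 with a sample left out. Etv4 and Etv5 in NPK lost their calls with the fibroblast mean as a covariate alone (0.81 and 0.67), and at 1 month with that covariate (0.83 and 0.81) and with those of seminal vesicle and muscle (0.54 and 1.12). With the authors' values Etv4 changed by 0.86 and Etv5 by 0.57 in NPK, both called. From 1 to 3 months Etv4 lost its call with array weights (1.76), the authors' values (1.07), the chip of NP 1 to 5 left out, no filter on dim probes, only the groups compared (1.82 in each), values floored at 0 (1.82) and the replicate block (1.64). It ranged from 1.40 to 2.23 with a sample left out. Etv5 there gained a call with an offset of 50 (0.99) and with the fibroblast mean (1.15), and ranged from 0.74 to 1.47. ILMN_2631953 of Etv1 turned negative in NPK without the chip of NP 1 to 5 (-0.20) or of NPK 6 to 7 (-0.024), with the replicate block (-0.035) and with the fibroblast mean (-0.28), and at 1 month without the chip of NP 1 to 5 (-0.22) and with the fibroblast mean (-0.27), never past the threshold. With a sample left out it ranged from -0.11 to 0.23 in NPK, -0.12 to 0.29 at 1 month, -0.35 to 2.11 at 3 months and -0.38 to 2.08 from 1 to 3 months. The causes were not tested. The replicate numbers were not taken to pair the samples. Of 19 same-numbered pairs 1 correlated above 0.1 (r from -0.16 to 0.15). Differently numbered pairs were not computed for reference, so these values cannot settle whether the numbers pair samples. The replicate block changed no other call of a lead probe. ILMN_2643915 of Etv1 in NPK passed in 10 of 18 settings and 4 of 20 runs with a sample left out.

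The number of probes called was 7845, 9128, 11003 and 3739 in NPK, at 1 month, at 3 months and from 1 to 3 months. It was 3765 and 5431 for the first 2 with chip as a random block, 3070 and 5600 with the fibroblast mean, and 3911, 2907 and, from 1 to 3 months, 2364 with the seminal vesicle and muscle means. In NPK it was 3884 with the chip of NPK 1 to 5 left out and 2984 on the chips of a shared barcode series (4 against 3 samples). From 1 to 3 months it was 2326 with the authors' values and 2461 with only the groups compared. Without replicate 1 of the 3-month group it was 1424 there and 6733 against NP. With 1 probe per gene it was 4180, 4709, 6026 and 2408, fewer probes being tested. Median scaling moved the median of all probes from -0.03 to 0.10 in NPK and from 0.01 to 0.13 at 1 month, and the share of calls that were higher from 41.4% to 62.2% and from 48.9% to 61.3%. Etv4 and Etv5 stayed called under it.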

Other observations

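The dim Etv1 probes followed other genes than ILMN_2631953 did, as seen in a search run after the values were known, over the same 20 samples. For ILMN_2649709 the 5 highest r were those of Insig1 (0.941), Sox5 (0.935), Actr1a (0.920), Sgcb (0.919) and Plec (0.917), and for ILMN_2643915 those of Gas2l3 (0.931), Ndfip1 (0.919), Slc38a10 (0.916), Rdh11 (0.913) and Emc3 (0.913). With group means taken out these r were 0.607 to 0.727 and 0.514 to 0.687. Both probes were at noise in all NP samples. The other Etv5 probe, ILMN_2938047, had Col18a1 (0.892), a collagen gene, Nid1 (0.888), which encodes a basement membrane protein, Mrpl3 (0.887), Rab31 (0.887) and Lmna (0.886) as its 5, so that Rab31 was named by both Etv5 probes and by Etv4.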
